A study of Homo sapiens with 5 samples.

Results

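The neuropeptide galanin and its receptors were described from 4 genes, GAL, GALR1, GALR2 and GALR3, all of which were among the 33857 genes listed in the deposited table. GAL, GALR1 and GALR3 were among the 19232 genes that were abundant enough to be tested, and GALR2 was not. The 4 genes were picked by name after GALR1 had been selected on its increase in the CFIm25-m samples, where it ranked 1 of 137 genes called as higher (adjusted p below 0.05 by limma-trend, a linear model on log2 values) with a mean normalized count of at least 100 and no overlap between groups. The next gene in that order was CUZD1, with a log2 difference of 2.60 against 3.32 for GALR1. The group differences of the 4 genes are therefore given as a description, with errors and without a test.

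The series holds poly(A)+ RNA-seq of 2 mock control and 3 CFIm25-m samples of H9, a line of human embryonic stem cells, all kept in mTeSR, a medium for pluripotent cells. CFIm25, encoded by NUDT21, is the UGUA-binding subunit of the 3′ processing factor CFIm, and the series asks how poly(A)+ transcripts differ when it is depleted. The mock control cells received the CRISPR/Cas9 vector without a gRNA, and the CFIm25-m cells were lines edited with independent gRNAs that kept a reduced amount of CFIm25 with small changes at its N terminus. The labels call the edited samples KO and the design text calls them KD. The paper took 2 randomly chosen clones with the empty vector as mock controls, and the labels do not link samples to clones. Each edited line was also 1 clone, so effects of the editing and differences between clones cannot be told apart. Values are normalized counts, the reads of a gene divided by the size factor of the sample.

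Galanin is a secreted neuropeptide cut from a larger precursor, and it inhibits the release of transmitters and hormones from many neurons and endocrine cells. Its receptors are G protein-coupled receptors. GALR1 and GALR3 signal mainly through Gi/o proteins, which lower cyclic AMP and open potassium channels, while GALR2 also activates phospholipase C through Gq. Galanin is also a well-known abundant transcript of pluripotent stem cells.

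Because CFIm25 acts at poly(A) sites, the annotated 3′ end of each gene is shown as 30 bases of the DNA sense strand that finish with the polyadenylation hexamer. Capitals mark the AATAAA hexamer. The sequences are those of GENCODE v44 transcripts lifted to GRCh37, so the positions in this paragraph are those of GRCh37, plus strand, and differ from the GRCh38 positions of the genes given with the values.
GAL (chr11:68458602-68458631): tttggtaattattttgagtggcaaAATAAA
GALR1 (chr18:74989812-74989841): tggaaccagttttcttgcattgaaAATAAA
GALR2 (chr17:74073566-74073595): accgtggggagagctttgcctgttAATAAA
GALR3 (chr22:38221449-38221478): gcggagaggctgcccgaggaccggAATAAA
The hexamers began 18 bases before the annotated end for GAL, 21 for GALR1, 29 for GALR2 and 20 for GALR3. AATAAA or ATTAAA was found on the sense strand in the last 100 bases of 77.1% of 19769 protein-coding transcripts, 1 per gene. TGTA, the DNA form of the UGUA motif, was found in the same window of 51.8% of these transcripts and in none of the 4 galanin genes. This says only that these letters were not in this window, and use of the ends was not measured by the gene-level counts.

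The recovered library totals lay between 18754108 and 23372391 reads. The log2 values of the mock controls had a Pearson correlation of 0.991 across genes, pairs of CFIm25-m samples had 0.981 to 0.988, and CFIm25-m replicate 3 was the furthest from the mock controls. NUDT21 had normalized counts of 6503 and 6398 in mock control and 4035, 3281 and 3400 in CFIm25-m, a log2 difference of -0.86 and an adjusted p of 0.00431 by limma-trend. This call was lost without either mock control (adjusted p = 0.0618 and 0.0557). None of the 10 pluripotency markers passed the test in limma-trend or edgeR, with 3 at an unadjusted p below 0.05, while 1 passed in DESeq2 and 5 passed in limma-trend without CFIm25-m replicate 3, and their summed normalized count ranged from 247243 to 251102 in mock control and was below that in every CFIm25-m sample, at 226152 to 229704. The most abundant of them per length were LIN28A, POU5F1 and DNMT3B, with log2 differences of -0.41, 0.21 and -0.33 (adjusted p = 0.292, 0.456 and 0.293). In the sum, the means of LIN28A and DNMT3B were 56465 and 56650 in mock control and 43124 and 45180 in CFIm25-m. Groups did not overlap for 7 of the 10 markers, beside 36.8% of all tested genes. Every CFIm25-m sample was above both mock controls for POU5F1, TDGF1 and PODXL, and below both for NANOG, DNMT3B, SALL4 and LIN28A. By limma-trend, SALL4 was at -0.35 (adjusted p = 0.0854). Of 11 tested neural markers, 2 were called, beside 1.88% of all tested genes, and 4 had an unadjusted p below 0.05, beside 15.1%. Of these, DCX, a microtubule protein of migrating neurons, was lower (282 and 273 against 124, 135 and 118, adjusted p = 0.0064), and MAP2, a dendritic microtubule protein, was higher (98.0 and 93.6 against 491, 504 and 207, adjusted p = 0.019). Both calls were lost without either mock control (adjusted p from 0.0569 to 0.118), and that of MAP2 also without CFIm25-m replicate 1 or 2 (0.117 and 0.0852). The other 2 were ELAVL4, a neuronal RNA-binding protein (17.3 and 11.6 against 43.1, 33.3 and 77.9, log2 difference 1.70, adjusted p = 0.0680), and STMN2, a neuronal microtubule regulator (5.76 and 2.90 against 12.03, 11.7 and 22.1, log2 difference 1.61, adjusted p = 0.162), with every CFIm25-m sample above both mock controls. Every CFIm25-m sample lay below both mock controls for ELAVL3, TUBB3 and SOX1. Their log2 differences were -0.49, -0.64 and -0.99 (adjusted p = 0.351, 0.400 and 0.376 by limma-trend). Groups did not overlap for 7 of the 11 tested neural markers, beside 36.8% of all tested genes. DESeq2 called 3 neural markers, 2 higher and 1 lower, and edgeR called 2. The most abundant neural markers per length were NES, OTX2 and SYP, with log2 differences of -0.13, 0.10 and -0.06. None of 3 tested endoderm markers (CER1, CXCR4 and HHEX, at 0.32, 1.40 and -0.56) and none of 5 tested mesoderm markers (led by KDR, TBX6 and MESP2, at 0.19, -0.26 and 0.36) passed in limma-trend, edgeR or DESeq2, with 1 and 0 at an unadjusted p below 0.05. Among the untested markers, FOXA2 and SOX17 had at most 1.15 normalized counts in any sample, and NEUROD1 was at 0 in both mock controls. GATA4, also untested, had 9.22 and 8.69 in mock control and from 1.80 to 17.04 in CFIm25-m. PAX6, untested as well, had 3.46 and 3.86 in mock control and at least 5.77 in every CFIm25-m sample. For the tested CXCR4, every CFIm25-m sample also lay above both mock controls. The summed neural markers ranged from 14047 to 14722 in mock control and from 11729 to 15173 in CFIm25-m, the endoderm markers from 57.9 to 76.1 and from 78.3 to 109.7, and the mesoderm markers from 2751 to 2860 and from 2821 to 3808. Most of the neural sum was NES (12428.4 and 13157.5 in mock control), and most of the mesoderm sum was KDR (2608.3 and 2683.8). The part of such cell types in the values below was not tested. In these bulk samples, fewer cells that express a gene and less RNA per cell cannot be told apart.

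GAL, the ligand gene, was abundant, and its group means differed by less than the spread of the CFIm25-m samples. GAL (ENSG00000069482, GRCh38 chromosome 11, 68683779 to 68691175, plus strand) had normalized counts of 1237 and 1359 in mock control and of 1099, 1283 and 1421 in CFIm25-m. The lowest and the highest values were both from CFIm25-m samples, so the groups overlapped. The means were 1298 ± 86.3 (SD, n = 2) and 1268 ± 161 (SD, n = 3), a log2 difference of -0.04 with a standard error of 0.12. Its 95% interval ran from -0.31 to 0.23, so a difference within that range is not distinguished from no difference. Each value rested on between 1073 and 1477 reads.

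GALR1, a receptor that signals mainly through Gi/o, was low in mock control and higher in every CFIm25-m sample. GALR1 (ENSG00000166573, GRCh38 chromosome 18, 77250549 to 77277896, plus strand) had 24.2 and 24.1 normalized counts in the mock controls, from 21 and 25 reads. It had 165, 313 and 302 in CFIm25-m replicates 1, 2 and 3, from 165, 348 and 314 reads. All 3 edited samples lay above both mock controls, and replicate 1 had the smallest value of the 3. Every CFIm25-m sample lay on one side of both mock controls for 36.8% of all tested genes. The means were 24.2 ± 0.055 (SD, n = 2) and 260 ± 82.3 (SD, n = 3), a ratio of 10.8 and a log2 difference of 3.32 on the log2(value + 1) scale, with a standard error of 0.28 and a 95% interval from 2.69 to 3.94. Over the same genes, 361 were called by limma-trend at an adjusted p below 0.05, which is 1.88% of those tested, with 0.941% higher and 0.936% lower, and nothing is read from this for GALR1 since it was chosen by that contrast. An unadjusted p below 0.05 was found for 2911 of the tested genes, or 15.1%, which is the background for the counts of such genes given for each list.

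The mock control values of GALR1 lay closer together than the counting error of their reads. Their 95% Poisson intervals were 15.0 to 37.0 and 15.6 to 35.6 normalized counts, which cover counting error only. The intervals in CFIm25-m were 141 to 193 in replicate 1, 281 to 348 in replicate 2 and 270 to 337 in replicate 3. Set against the mock control mean, the level was 6.84-fold in replicate 1, 13.0-fold in replicate 2 and 12.5-fold in replicate 3. The coefficient of variation among the 3 edited samples was 31.6%.

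GALR3, the other receptor that signals mainly through Gi/o, was at the edge of detection for a test. GALR3 (ENSG00000128310, GRCh38 chromosome 22, 37823382 to 37825495, plus strand) had normalized counts of 16.1 and 8.69 in mock control and of 10.02, 18.0 and 18.3 in CFIm25-m. The groups overlapped, since CFIm25-m replicate 1 lay between the mock controls. The means were 12.4 ± 5.27 (SD, n = 2) and 15.4 ± 4.69 (SD, n = 3), a log2 difference of 0.31 with a standard error of 0.45 and a 95% interval from -0.70 to 1.31. The values rest on 9 to 20 reads per sample, and the interval includes both a lower and a higher level in CFIm25-m.

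GALR2, the receptor that also couples to Gq, stood near the floor of the measurement. GALR2 (ENSG00000182687, GRCh38 chromosome 17, 76074794 to 76077541, plus strand) had 2.31 and 1.93 normalized counts in mock control and 2.00, 4.50 and 0.96 in CFIm25-m. These values came from 2, 2, 2, 5 and 1 reads, so no order of the samples can be read from them. GALR2 reached the minimum of 10 in no sample and was not tested. The whole of its 2748 bases lies within the deposited bounds of ZACN, a zinc-activated ion channel gene on the same strand, whose normalized counts were between 2.00 and 10.6. Reads in their shared exons may have been split or left out in the counting, so the value of GALR2 is uncertain. GAL, GALR1 and GALR3 overlapped no other listed gene.

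**Figure D1:**
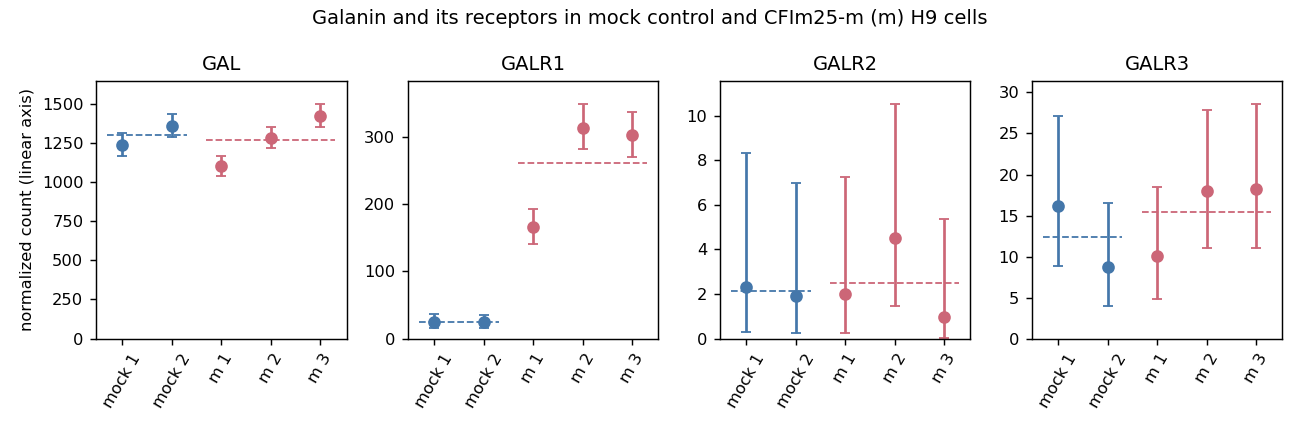
Normalized counts (linear axes from 0, a separate scale in each panel) of GAL, GALR1, GALR2 and GALR3 in the 2 mock control samples (blue) and the 3 CFIm25-m samples (red, m 1 to m 3), with 95% Poisson intervals of the reads as bars and group means as dashed lines. The CFIm25-m values of GALR1 (165, 313 and 302) lie above both mock controls (24.2 and 24.1), while the groups overlap for GAL, GALR2 and GALR3.

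Per kilobase of the deposited gene length, the order of the receptors differed between the groups. In normalized counts per kb, which allow genes of unequal length to be compared, the mock control means were 998 for GAL, 10.7 for GALR3, 2.35 for GALR1 and 1.55 for GALR2. In CFIm25-m they were 975 for GAL, 25.3 for GALR1, 13.3 for GALR3 and 1.82 for GALR2. GALR3 was above GALR1 in both mock controls, and GALR1 was above GALR3 in all 3 CFIm25-m samples. GALR1 and GALR2 were neighbours in mock control that did not differ beyond their counting error. The counting intervals of GALR1 and GALR3 per kb also met in mock control replicate 2 and in CFIm25-m replicate 1, and lay apart in the other samples. The GALR1 level depends on its gene length of 10299 bases, several times that of GALR2 (1364) and GALR3 (1157), so a count of reads without length would rank GALR1 higher than GALR3 in mock control as well.

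The share of GALR1 in the summed receptor level per kb was 13.1% and 20.8% in mock control and 61.3%, 61.7% and 64.0% in CFIm25-m. The ratio of GALR1 to GALR3 was 0.169 and 0.312 in mock control and 1.85, 1.95 and 1.86 in CFIm25-m. The ratio rests on 9 to 20 reads of GALR3 per sample, so differences or likeness between samples in it cannot be read. The GALR3 share was 77.5% and 66.6% in mock control and 33.1%, 31.6% and 34.5% in CFIm25-m. The level of the ligand transcript exceeded the receptor sum 52.9-fold and 92.8-fold in mock control, and 32.3-fold, 20.02-fold and 23.8-fold in CFIm25-m. All these shares contain GALR1 and so carry the difference it was chosen for.

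**Figure D2:**
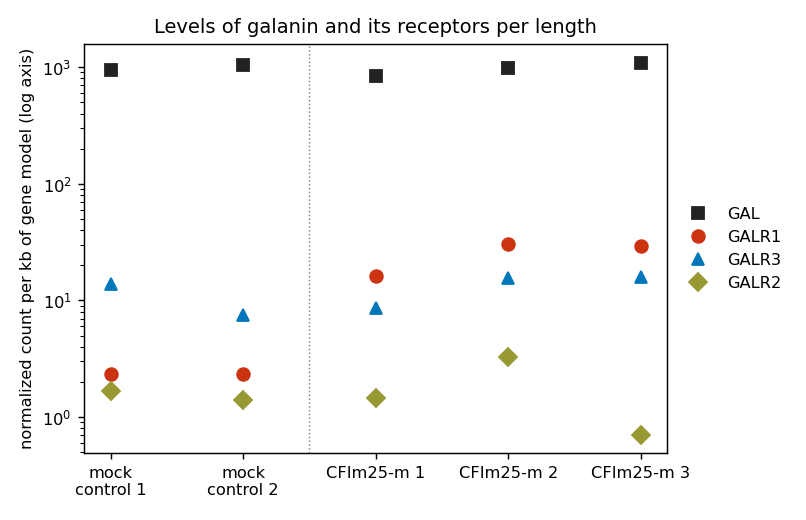
Normalized count per kb of gene model (log axis) of GAL, GALR1, GALR2 and GALR3 in each mock control and CFIm25-m sample, 1 point per gene and sample. GAL lies near 1000 in every sample, and GALR1 lies below GALR3 in both mock controls and above it in the 3 CFIm25-m samples.

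Set beside other peptide genes, GAL was the precursor with the highest level per kb in every sample, of 33 neuropeptide precursors listed. Its level per kb was above that of 94.7% of tested protein-coding genes in mock control and of 95.2% in CFIm25-m. The next precursor was NMU, the gene of neuromedin U, at 300.1 per kb over all samples. GALR1 was chosen for its increase, so its ranks and percentages by group carry that difference. GALR1 was rank 29 of 46 listed peptide receptors by its mock control mean and rank 9 by its CFIm25-m mean. By sample, its rank was 31 and 33 in mock control and 12, 7 and 9 in CFIm25-m. It was above 2.47% of tested protein-coding genes per kb in mock control and above 23.7% in CFIm25-m, so it was a low transcript in both groups. GALR3 was rank 17 and rank 15 by the same means, and GALR2 rank 35 and rank 33.

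**Figure D3:**
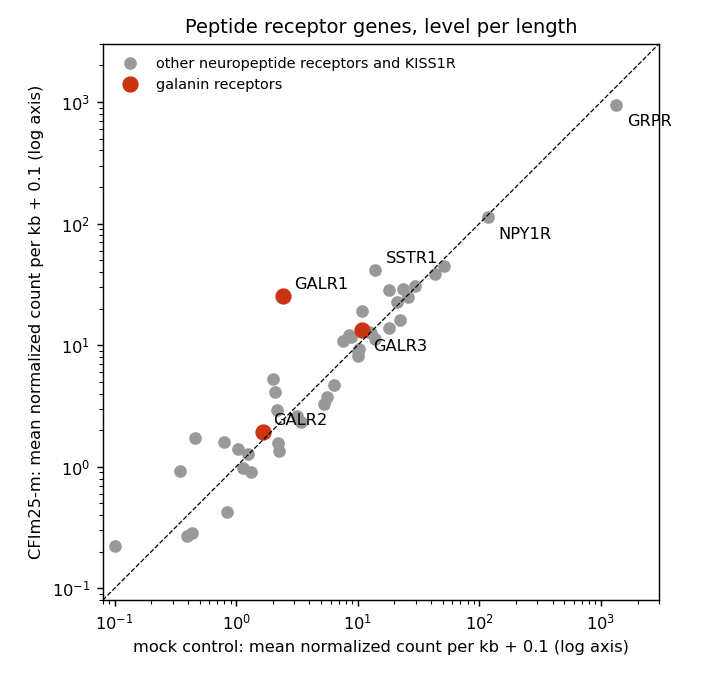
Mean normalized count per kb plus 0.1 (log axes) of 46 listed peptide receptor genes in mock control (x axis, 2 samples) and CFIm25-m (y axis, 3 samples), with the galanin receptors in red and equal levels on the dashed line. GALR1, chosen for its increase, lies above the line at 2.35 and 25.3, GALR2 and GALR3 lie near the line, and GRPR has the highest level in both groups.

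The closest relatives of the galanin system were not called. These are GALP, a galanin-like peptide, SPX, the gene of spexin, a ligand of GALR2 and GALR3, and the kisspeptin gene KISS1 with its receptor gene KISS1R. KISS1R had normalized counts of 61.1 and 84.0 in mock control and 55.1, 66.6 and 73.1 in CFIm25-m, a log2 difference of -0.15 with an adjusted p of 0.812 by limma-trend. SPX had 11.5 and 17.4 against 21.0, 16.2 and 10.6, a log2 difference of 0.11 with an adjusted p of 0.929. None of the 2 tested genes had an unadjusted p below 0.05 or was called by edgeR or DESeq2, and GALP and KISS1 were below the filter, with at most 2.90 and 7.20 normalized counts.

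Among 18 genes of prohormone cleavage, amidation and secretory granules, all of them tested, 1 was lower, none was higher and 17 were not called, in a background of 1.88% of all tested genes called. VGF, a granule protein that is itself a peptide precursor, had 546 and 576 normalized counts in mock control and 360, 284 and 338 in CFIm25-m, a log2 difference of -0.78 (standard error 0.14, adjusted p = 0.0205, by limma-trend). The median log2 difference of the 18 genes was 0.01, beside -0.01 over all tested genes, and 5 of them had an unadjusted p below 0.05. The highest levels per kb were those of SCG5, SCG3 and the prohormone convertase gene FURIN, with log2 differences of -0.06, 0.03 and -0.27 (adjusted p = 0.852, 0.936 and 0.229). PAM, an enzyme of peptide amidation, had a log2 difference of 0.24 (adjusted p = 0.256), and PCSK1, a convertase of endocrine cells, one of 0.61 (adjusted p = 0.213). CHGB and PCSK2, of the same list, went the other way, at -0.45 and -0.28 (adjusted p = 0.284 and 0.696). The VGF call was lost without mock control replicate 1 (adjusted p = 0.174), mock control replicate 2 (0.250) or CFIm25-m replicate 1 (0.0527).

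Of 48 genes of G protein signalling below the receptors, 42 were tested, 1 was higher, 1 was lower and 40 were not called. GNA14, a Gq-class alpha subunit, had 324 and 327 normalized counts in mock control and 549, 758 and 996 in CFIm25-m, a log2 difference of 1.19 (standard error 0.21, adjusted p = 0.0202, limma-trend). ARRB1, an arrestin that uncouples and internalizes receptors, had 1140 and 1154 against 466, 441 and 765, a log2 difference of -1.09 (standard error 0.20, adjusted p = 0.0293). In both genes the 3 edited samples lay on one side of the mock controls. These 2 of 42 genes and the 1 or 2 called in each peptide list below are to be read against the same 1.88%. The median of the 42 genes was -0.06, and 8 had an unadjusted p below 0.05. The GNA14 call was lost without mock control replicate 1 (adjusted p = 0.0905), mock control replicate 2 (0.0828) or CFIm25-m replicate 2 (0.0875). The ARRB1 call was lost without either mock control (0.119 and 0.134), without CFIm25-m replicate 1 (0.147) or replicate 2 (0.0996), and with scaling to library totals (0.0530).

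The most abundant G protein genes per kb were GNB1 and GNB2, both beta subunits, and GNAI2, a Gi alpha subunit. Their log2 differences were -0.12, -0.05 and -0.33 (adjusted p = 0.613, 0.871 and 0.152, limma-trend). The other Gi/o alpha subunits, through which GALR1 signals, were not called either, with log2 differences of 0.03 for GNAI1, -0.11 for GNAI3, -0.33 for GNAO1 and -0.15 for GNAZ. GNAQ and GNA11, the widely expressed Gq alpha subunits, had -0.14 and -0.17. Of the potassium channel genes that Gi/o opens, KCNJ6 was tested, with a log2 difference of -0.13 (adjusted p = 0.799), and KCNJ3, KCNJ5 and KCNJ9 were below the filter.

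Of 35 other neuropeptide precursors, 29 were listed and 15 tested, and 1 was higher with none lower. NMU, whose peptide acts on smooth muscle and feeding circuits, had 166 and 186 normalized counts in mock control and 397, 403 and 311 in CFIm25-m, a log2 difference of 1.06 (standard error 0.16, adjusted p = 0.0094, by limma-trend). The median of the 15 was 0.00, and 2 had an unadjusted p below 0.05. NMB, the gene of neuromedin B, and TAC3, the gene of neurokinin B, had log2 differences of 0.04 and 0.00 (adjusted p = 0.957 and 0.994). The NMU call was lost without either mock control (adjusted p = 0.116 and 0.0623), without CFIm25-m replicate 1 (0.0735) or without replicate 2 (0.0508).

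Of 48 receptors of those peptides, 42 were listed and 27 tested, and 1 was higher, 1 lower and 25 not called. SSTR1, a somatostatin receptor that couples to Gi/o as GALR1 does, had 50.7 and 66.6 normalized counts in mock control and 165, 184 and 181 in CFIm25-m, a log2 difference of 1.59 (standard error 0.19, adjusted p = 0.00425, limma-trend). GRPR, the receptor of gastrin-releasing peptide and the most abundant of the 46 receptors per kb, had 2565 and 2605 against 1814, 1825 and 1863, a log2 difference of -0.49 (standard error 0.09, adjusted p = 0.0207). The median of the 27 was -0.08, and 3 had an unadjusted p below 0.05. NPY1R and ADCYAP1R1, receptors of neuropeptide Y and PACAP, followed GRPR in level, with log2 differences of -0.15 and -0.25 (adjusted p = 0.831 and 0.620). The SSTR1 call was lost without mock control replicate 1 (adjusted p = 0.0512), and the GRPR call without either mock control (0.318 and 0.353), without CFIm25-m replicate 1 (0.0776) or without replicate 2 (0.0516).

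**Figure D4:**
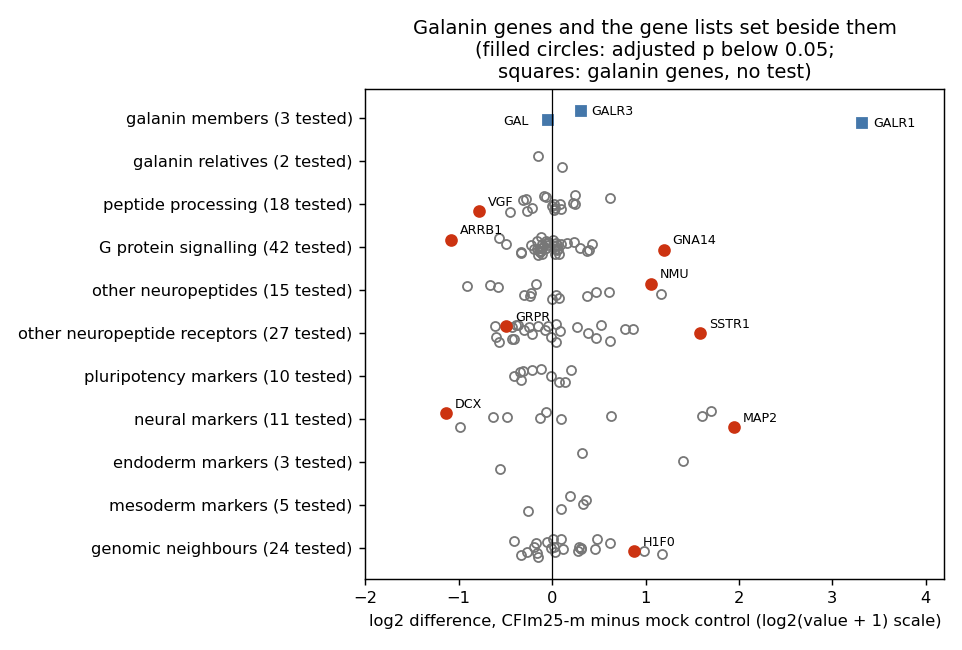
Log2 differences, CFIm25-m minus mock control on the log2(value + 1) scale, of the tested genes of each list, 1 point per gene and spread vertically only for legibility, with filled circles for an adjusted p below 0.05 by limma-trend and squares for the galanin genes, which are shown without a test. GALR1, chosen for its increase, lies at 3.32, GAL at -0.04 and GALR3 at 0.31, and no other gene of these lists exceeds the 1.94 of MAP2.

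Of the 6 genes next to GALR1, 0 were called by limma-trend and 1, AC124254.1, had an unadjusted p below 0.05. The 3 nearest tested genes before its start were ZNF236, MBP and AC018529.2, between 428 and 138 kb away, with log2 differences of 0.09, 0.12 and 0.29 (adjusted p = 0.728, 0.732 and 0.783, limma-trend). On the other side, AC124254.1, at 171 kb, had 12.7 and 12.5 normalized counts in mock control and 29.1, 35.1 and 26.0 in CFIm25-m, a log2 difference of 1.18 with an adjusted p of 0.123. LINC01896 and SALL3, 1726 and 1730 kb away, had log2 differences of 0.31 and -0.27 (adjusted p = 0.630 and 0.474). Of the 6, AC124254.1 and AC018529.2 had no overlap between groups, which was also found for 36.8% of all tested genes. The log2 difference was above 1 for AC124254.1 and was 0.29 for AC018529.2.

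**Figure D5:**
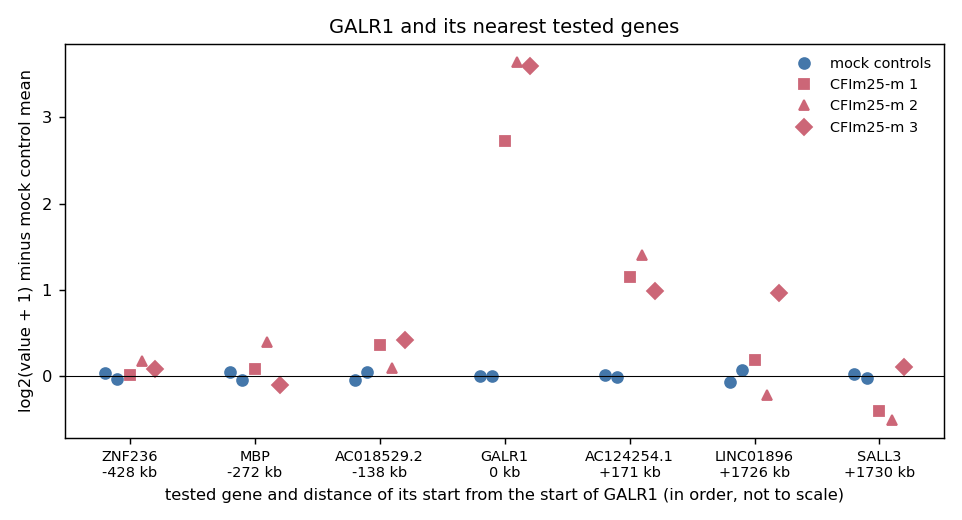
Log2(value + 1) minus the mock control mean for GALR1 and the 3 nearest tested genes on each side, in genome order (x axis, distance of the gene start from the GALR1 start in kb, not to scale), for 2 mock control (circles) and 3 CFIm25-m samples (square, triangle and diamond). The CFIm25-m points of GALR1, which was chosen for its increase, lie between 2.72 and 3.64, above those of every neighbour shown.

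Around the other galanin genes, 1 of 18 neighbours was called, and the 1 of 24 over all neighbours stands beside 1.88% of all tested genes. The median log2 difference of all 24 neighbours was 0.06, and 4 of them had an unadjusted p below 0.05. Over the 24, edgeR called 1 and DESeq2 called 2. H1F0, a linker histone gene 18.3 kb before the start of GALR3, had 3149 and 3122 normalized counts in mock control and 7148, 4504 and 5898 in CFIm25-m, a log2 difference of 0.87 (standard error 0.16, adjusted p = 0.0276, limma-trend). It was also the most abundant of the neighbours per kb, followed by EIF3L and GCAT, which had -0.15 and -0.06 (adjusted p = 0.583 and 0.855). GAL lay between LRP5, PPP6R3 and AP003096.1 on one side and TESMIN, CPT1A and AP000808.1 on the other, with log2 differences from -0.41 to 0.31, none of them called. The H1F0 call was lost without either mock control (adjusted p = 0.143 and 0.153) or without CFIm25-m replicate 1 (0.0840).

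By Pearson correlation of log2 values over the 5 samples, the 16378 tested genes with a mean of at least 20 were set beside each gene as a description, without a p. The 5 most like GALR1 were HSPA12B, ESRRB, ATP11A, SSC4D and HM13, all at 0.999. ESRRB, an orphan nuclear receptor of pluripotent cells, had 23.1 and 23.2 normalized counts in mock control and 42.1, 53.1 and 53.9 in CFIm25-m, a smaller range than that of GALR1. That its groups lay apart follows from picking genes like GALR1, which was itself chosen for its increase without overlap between groups. The 5 most like GAL were CCL2 (0.998), NFE2L3, TNK2 and AL031595.3 (all 0.995) and AL139407.1 (0.992). With 5 samples, 2 of them nearly equal for GALR1, high correlations are common, and 336 genes exceeded 0.95 for GALR1 and 77 for GAL.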

How the data were processed

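The authors deposited normalized counts, a signal made by dividing each gene's reads by the size factor of its sample. The submitters' processing notes name HISAT2, featureCounts from Subread, DESeq2 and hg38, and the annotation release and strand setting are not given in the sources used here. Values were whole multiples of 1 read (tolerance 0.001) for 100% of values, which gave the reads. The deposited log2 fold changes and p-values are the authors' own comparison and were not used, and the deposited gene lengths gave levels per kb. Genes reaching a normalized count of 10 in 2 or more samples entered limma-trend on log2(value + 1) with limma 3.58.1 in R 4.3.3 over all 5 samples, so differences of low genes are understated. Benjamini-Hochberg adjustment ran over all tested genes, with a threshold of 0.05. The p-values measure only the spread between these samples. The paper used 2 mock control clones, but the labels do not link samples to clones. The spread of the mock controls may therefore be between clones or technical. With 10 arrangements of the samples, permutation could not reach that threshold. The test was checked on simulated counts with the same spread in every gene and both groups. The samples here need not share that setting, so this check says nothing of error rates in them.

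The members and the lists were chosen with earlier results of these data known. Named were the 4 galanin genes, NUDT21, every called gene of a list, the 3 most abundant tested genes of a list per kb, the 3 nearest tested genes on each side, and the 5 genes most alike in pattern. PAM, PCSK1, CHGB, PCSK2, the further Gi/o and Gq subunits and the potassium channel genes were named for their role or their difference after their values were seen. So were ELAVL4, STMN2, ELAVL3, TUBB3, SOX1, TDGF1, PODXL, NANOG, SALL4 and the untested endoderm and neural markers. Alternatives were edgeR 4.0.16 (quasi-likelihood) and DESeq2 1.42.0 on the recovered reads, other scalings, filters, pseudocounts and variance models, a replicate block, and leaving out each sample.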

Additional observations from a re-analysis of the deposited data

How the results depend on the processing

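Depth limited GALR2 and GALR3, with 1 to 20 reads per sample, and counting intervals cover counting error only, since reads without molecular identifiers are not independent molecules. The group difference of GAL ranged from -0.13 to 0.06 on the log2 scale over its alternatives and changed sign with scaling to library totals (0.03) and when some samples were left out. That of GALR1 ranged from 3.13 to 3.62 and that of GALR3 from -0.11 to 0.72, and GALR2 had a value of 0.04 only without a filter on low counts. NUDT21 kept its value of -0.86 without the mean-variance trend but missed the threshold (adjusted p = 0.106), and leaving out 1 sample gave -0.95 to -0.80. Without that trend, 0 genes were called in the lists of peptide processing, G protein signalling, other neuropeptides, other neuropeptide receptors, neural markers and genomic neighbours, and 46 of all tested genes. The cause was not tested. With DESeq2, 1 pluripotency marker, 2 neighbours and 628 of all genes were called, and with library totals 1 G protein gene.

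Leaving out 1 sample gave 0 to 1 called genes for peptide processing, 0 to 5 for G protein signalling, 0 to 1 for other neuropeptides, 0 to 2 for their receptors, 0 to 5 for pluripotency markers, 0 to 3 for neural markers, 0 to 3 for neighbours and 66 to 1044 over all genes. Over all genes the count was lowest without mock control replicate 1 and 71 without mock control replicate 2, and highest without CFIm25-m replicate 3, the sample furthest from the mock controls. Where 1 mock control was left out, the other was assumed to vary like the edited samples. For NUDT21 and the called genes of the lists, no direction was reversed under any alternative run, and the other named genes were not followed through the alternatives.

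The labels give both groups replicates 1 and 2, but the correlations of the deviations of same-numbered samples were 0.00717 and 0.0180 and the edited samples were different lines, so the numbers were not taken as pairs. A fit with the replicate number as a block, gives the same differences as leaving out CFIm25-m replicate 3, since no mock control shares its number, and it called 4 genes of peptide processing, 6 of G protein signalling, 6 pluripotency markers, 4 neural markers, 5 neighbours and 2107 of all genes.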
